A study of Mus musculus with 2 samples.

Results

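The genes of the DNA replication machinery were followed in mouse embryonic stem cells after knockdown of Son, the gene for an RNA-binding splicing cofactor that resides in nuclear speckles. The 45 genes were taken by symbol, with no threshold on a measured value, and all were found among the 32285 genes listed. All 45 also passed a filter of 10 CPM on the mean of both libraries, as did 8063 genes in total, called the tested genes here (CPM is a gene's UMIs scaled to a common library total). They were grouped by the complex or step they serve, which gave 12 groups.

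Both libraries came from E14 cells, a mouse embryonic stem cell line of 129/Ola background, kept in serum with leukaemia inhibitory factor. The library named control received a control siRNA and the library named sonKD received siRNA against Son, both by lipofection 24 h after seeding, with harvest 24 h after transfection. After freezing and thawing, cells that excluded the dye 7-AAD were sorted and barcoded with the 10x Genomics Single Cell 3' v3 chemistry, which counts unique molecular identifiers (UMIs) near the 3' end of polyadenylated RNA. Each group held 1 library, so an effect of the knockdown and a difference between libraries cannot be told apart, no difference has a replicate check and no test was made.

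A barcode was kept as a cell from 2500 UMIs and 1000 genes up, with mitochondrial UMIs of 10% or less. They numbered 4978 in control, with 40902904 UMIs and a median of 7737.5 per cell, and 2731 in sonKD, with 32032551 UMIs and a median of 11612. Of the barcodes that met the first 2 limits, 11.2% in control and 27.9% in sonKD exceeded the mitochondrial limit. Barcode sequences shared by kept cells of both libraries numbered 2. The 9 pluripotency markers were all above 10 CPM in both libraries (summed CPM 8595 in control and 9353 in sonKD), while none of the markers of primitive endoderm, trophectoderm, mesoderm or fibroblasts reached 10 CPM. Of the neuroectoderm markers, Ncam1 and Tubb3 did. In control the siRNA target Son had 168.55 CPM and in sonKD it had 105.7 CPM, which is 62.7% of control (95% interval 60.2 to 65.4). All intervals in the text are at 95% and cover counting error only.

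DNA replication starts at origins that are marked by the origin recognition complex. During G1 phase, Cdc6 and Cdt1 help to load the ring-shaped MCM2-7 helicase there, a step called licensing. At the onset of S phase the kinase Cdc7 with its partner Dbf4 triggers firing, in which Cdc45 and the GINS complex join MCM2-7 to form the active helicase. DNA polymerase alpha with primase then lays primers, polymerases epsilon and delta extend the strands, the clamp PCNA holds polymerases on DNA after loading by replication factor C, replication protein A covers single strands, and Fen1 and Lig1 finish the lagging strand. Many of these genes are textbook targets of E2F transcription factors, and their transcripts are commonly highest from late G1 into S phase. Embryonic stem cells cycle fast with a short G1 phase.

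The promoters of the members were searched for 4 E2F-type octamers (TTTGGCGC, TTTCGCGC, TTTGCCGC and TTTCCCGC, both strands) in the 250 bases before the annotated start. A promoter was found in RefSeq (GRCm38.p6) for 38 of the 45 members, and 9 of these 38 (23.7%) held an octamer. The same octamers were in 2.16% of all 27025 promoters and in 4.53% of the 6471 promoters of tested genes. The 9 members were Orc1, Orc3, Cdc6, Mcm5, Mcm6, Mcm7, Gins3, Pola1 and Rfc3. The shorter motif CCAAT, on either strand, was in 23 of 38 members (60.5%) in 37.5% of all promoters and in 41.5% of those of tested genes. A match describes these letters only and is not a measured binding site. Of these, 3 windows that lie wholly outside the annotated gene are shown because Mcm5, Mcm6 and Pola1 were all higher at the G1/S end of the cell cycle order described further on. They were thus picked by outcome: in control, Orc3, Mcm7, Gins3 and Rfc3 also hold an octamer and had intervals across 0 between the ends of that order. Capitals mark the octamers, read 5' to 3' on the strand of the gene.
Mcm5: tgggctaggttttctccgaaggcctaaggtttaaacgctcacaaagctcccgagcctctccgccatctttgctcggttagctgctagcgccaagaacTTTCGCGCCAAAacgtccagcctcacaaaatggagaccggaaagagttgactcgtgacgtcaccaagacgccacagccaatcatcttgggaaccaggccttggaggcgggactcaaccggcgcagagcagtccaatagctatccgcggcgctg
Mcm6: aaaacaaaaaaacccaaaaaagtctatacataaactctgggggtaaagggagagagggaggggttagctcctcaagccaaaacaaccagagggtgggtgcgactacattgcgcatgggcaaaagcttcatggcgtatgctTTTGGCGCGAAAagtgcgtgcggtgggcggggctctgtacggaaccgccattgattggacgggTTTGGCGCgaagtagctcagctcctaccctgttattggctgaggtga
Pola1: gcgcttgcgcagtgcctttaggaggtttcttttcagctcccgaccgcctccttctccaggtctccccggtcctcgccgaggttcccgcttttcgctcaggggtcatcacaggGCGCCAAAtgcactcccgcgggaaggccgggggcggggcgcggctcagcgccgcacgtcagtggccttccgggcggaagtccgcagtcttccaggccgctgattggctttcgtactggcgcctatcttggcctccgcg
The Mcm5 window is chr8:75109259-75109508 on the plus strand and its 2 octamers overlap, 1 on each strand. The Mcm6 window is chr1:128359706-128359955 on the minus strand and holds 3 octamers, of which a pair on opposite strands overlap. The Pola1 window is chrX:93632156-93632405 on the minus strand and holds 1, on the strand opposite to the gene.

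The replication genes as a whole were slightly lower in sonKD, about as much as the typical gene. Their summed level was 5560.5 CPM in control and 5060.7 CPM in sonKD, a log2 ratio of -0.14 (-0.15 to -0.13), or 91.0% of control. The median member had a log2 ratio of -0.15, and the median tested gene one of -0.12. Of the 45 members, 37 were lower and 8 higher in sonKD, where 74.9% of tested genes were lower and 25.1% higher. That share depends on the scaling: with TMM factors of edgeR, which shift every log2 ratio by 0.09, 31 members were lower and 14 higher, beside 56.6% of tested genes lower. The members whose sign turned under that scaling were Cdc45, Gins4, Rfc4, Rfc5, Rpa2 and Rrm1.

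A log2 ratio beyond 0.32 in either direction was used as the size limit for naming. By that limit 3 members were lower in sonKD (Pold1, Mcm2 and Cdt1), beside 10.2% of tested genes, and 1 was higher (Rpa3), beside 3.5% of tested genes. The share of members is under the background in both directions. Measured from the median of the tested genes, only Pold1 and Rpa3 were past the size limit, with 3.82% of tested genes lower and 6.46% higher. The other 43 members lay between -0.40 and 0.25, the 5th and 95th percentiles of the tested genes. Counting intervals lay below 0 for 33 members, above 0 for 5 and across 0 for 7. Intervals were not counted over the tested genes, of which 74.9% were lower at any size, so this count does not set the members apart.

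**Figure D1:**
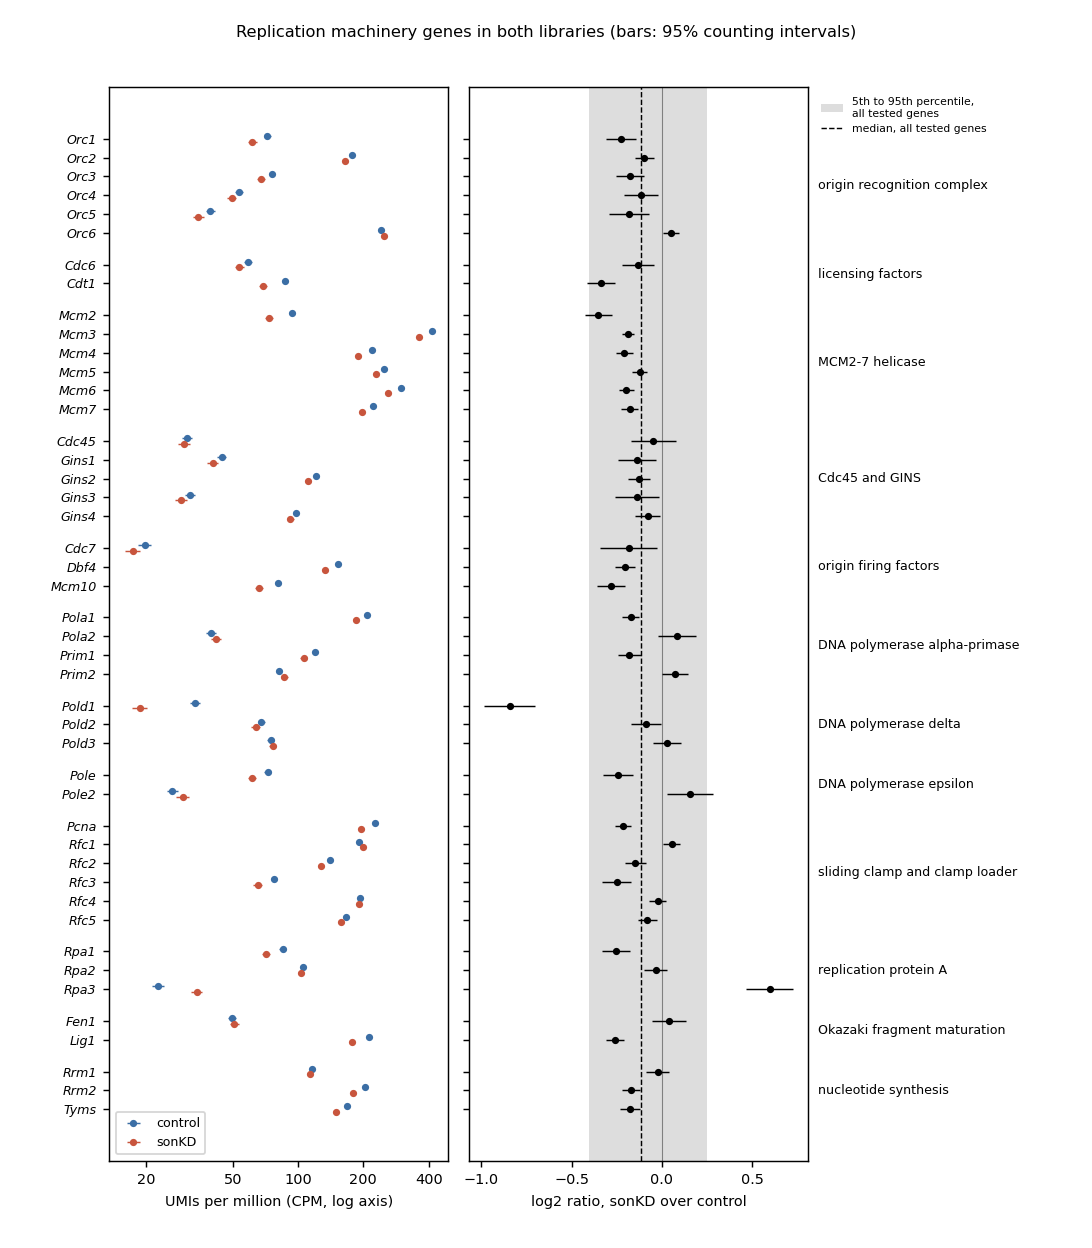
Level of each of the 45 members in CPM (left, log axis) in control (blue) and sonKD (red), and the log2 ratio of sonKD over control (right), with 95% counting intervals as bars; each library is 1 sample. Pold1 at -0.84 and Rpa3 at 0.60 lie outside the grey band from the 5th to the 95th percentile of all tested genes, and the other 43 members lie inside it.

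Levels among the members spanned from Cdc7, at 19.6 CPM in control against 17.3 CPM in sonKD, to Mcm3, at 412.7 and 362.0 CPM. The median member was at 93.5 CPM in control against 86.2 CPM in sonKD. These are counts near 3' ends and were not divided by transcript length, but capture can differ between transcripts. Whether intronic reads were counted is not known, so a part of gene length in these levels cannot be told. At a common depth of 4000 UMIs per cell, Cdc7 had a UMI in 7.43% of control cells and Mcm3 in 78.4%, and the median member in 30.1%. In sonKD the same shares were 6.37%, 73.9% and 29.3%. Unthinned, Cdc7 had a UMI in 14.6% of control and 17.9% of the deeper sonKD cells. Free RNA also carried these transcripts: in droplets of 100 to 500 UMIs the summed members were at 3877 CPM in control against 3431 CPM in sonKD, so a share of cells with a UMI includes background. No cell type without replication genes is present to measure that background directly.

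Among the origin and licensing genes, the origin recognition complex differed little between libraries and the licensing factor Cdt1 was lower in sonKD. The 6 genes of the origin recognition complex summed to 657.8 CPM in control and 626.9 CPM in sonKD, a log2 ratio of -0.07 (-0.10 to -0.04), which turned to 0.02 with TMM factors. The subunits other than Orc6 had log2 ratios from -0.23 (Orc1) to -0.10 (Orc2). Orc6, the most abundant of them, had the opposite sign, at 240.1 and 248.6 CPM (0.05, interval 0.01 to 0.09). Cdt1, which brings MCM2-7 to origins, was at 87.1 CPM in control against 69.0 CPM in sonKD (-0.34, interval -0.41 to -0.26). Cdc6, the ATPase that works beside it, was at 58.9 and 53.7 CPM (-0.13, interval -0.22 to -0.04).

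All 6 subunits of the MCM2-7 helicase were lower in sonKD, and the complex summed to 1494 CPM in control and 1310 CPM in sonKD, a log2 ratio of -0.19 (-0.21 to -0.17). Mcm2 differed most, at 93.5 and 73.3 CPM (-0.35, interval -0.43 to -0.28). The other 5 subunits had log2 ratios from -0.21 (Mcm4) to -0.12 (Mcm5). Although the subunits are assembled in equal numbers in the protein ring, their transcripts were uneven, with Mcm3 at 412.7 CPM and Mcm2 at 93.5 CPM in control. Cdt1 and Mcm2 were past the size limit by CPM alone: under TMM factors, size factors, or CPM without mitochondrial and ribosomal protein genes, Pold1 was the only lower member past that size. Under these scalings, in that order, 4.6%, 4.8% and 5.4% of tested genes were lower past it.

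The genes that turn the loaded ring into a moving helicase were lower in sonKD, Cdc45 and GINS by about as much as the median tested gene and the firing factors by more. Cdc45 and the 4 GINS genes summed to 326.0 CPM in control and 302.6 CPM in sonKD (-0.11, interval -0.15 to -0.07). Of these, Gins2 was the most abundant, at 121.6 and 111.3 CPM, and the 5 genes had log2 ratios from -0.14 (Gins1) to -0.05 (Cdc45). The firing factors Cdc7, Dbf4 and Mcm10 summed to 253.1 and 216.3 CPM (-0.23, interval -0.27 to -0.18). Dbf4 made up most of that sum, at 152.7 and 132.6 CPM (-0.20), and Cdc7 had a log2 ratio of -0.18. Mcm10, which helps to activate the helicase, was at 80.8 and 66.4 CPM (-0.28, interval -0.36 to -0.20).

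DNA polymerase delta held the largest difference of all members, in the gene of its catalytic subunit. Pold1 had 1367 UMIs in control and 597 in sonKD, which is 33.4 CPM (31.7 to 35.2) and 18.6 CPM (17.2 to 20.2). The level in sonKD was 55.8% of control, a log2 ratio of -0.84 (-0.98 to -0.70), and only 0.22% of tested genes had a lower ratio. The accessory subunits Pold2 and Pold3 had log2 ratios of -0.09 (-0.17 to -0.01) and 0.03 (-0.05 to 0.11), so the complex did not move as a unit. Pold1 was also lower in the droplets of free RNA, at 21.6 CPM in control against 8.63 CPM in sonKD. The gene lies at chr7:44532746-44548849 on the minus strand (GENCODE M21, GRCm38); its annotated transcript used here has 27 exons, a GC content of 60.7%, the highest among the members, and a median intron of 217.5 bases.

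The other replicative polymerases showed small differences of both signs. For polymerase alpha with primase the sums were 449.8 CPM in control and 419.0 CPM in sonKD (-0.10, interval -0.13 to -0.07), with Pola1 (207.9 and 184.6 CPM, -0.17) and Prim1 (120.2 and 106.1 CPM, -0.18) lower and Pola2 and Prim2 at log2 ratios of 0.08 (-0.02 to 0.19) and 0.07 (0.00017 to 0.15). The catalytic subunit Pole was at 72.6 and 61.3 CPM (-0.24, interval -0.33 to -0.16). Its partner Pole2 was at 26.4 and 29.4 CPM (0.16, interval 0.03 to 0.28). Of the last 300 bases of Pole2, 59.3% were shared with other annotation, most with the gene model Gm49384, which is not among the genes listed. Whether this sharing affects the level of Pole2 was not tested.

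Replication protein A held the member that was most clearly higher in sonKD. Rpa3, the smallest of its 3 subunits, had 923 UMIs in control and 1093 in sonKD, which is 22.6 CPM (21.1 to 24.1) and 34.1 CPM (32.1 to 36.2). Its log2 ratio was 0.60 (0.47 to 0.72), and 99.0% of tested genes had a lower one. The large subunit Rpa1 was at 84.9 and 71.3 CPM (-0.25, interval -0.33 to -0.18), and Rpa2 at 105.5 and 103.0 CPM (-0.03, interval -0.10 to 0.03). Rpa3 was more abundant in free RNA than in cells in both libraries, at 37.1 CPM in control droplets and 53.3 CPM in sonKD droplets. Its transcript has 670 bases, the shortest of all members, and 4 exons, at chr6:8255936-8259173 on the minus strand. The part of free RNA in the difference was not tested.

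The clamp, its loader and the enzymes of strand completion and nucleotide synthesis were close to the tested genes. The clamp gene Pcna was at 227.4 CPM in control against 195.9 CPM in sonKD (-0.21, interval -0.26 to -0.17), while the large loader subunit Rfc1 was at 191.5 and 198.8 CPM (0.05, interval 0.01 to 0.10). The smaller loader subunits Rfc2 to Rfc5 had log2 ratios from -0.25 (Rfc3) to -0.02 (Rfc4). Lig1, the ligase that seals Okazaki fragments, was at 211.7 and 176.8 CPM (-0.26, interval -0.31 to -0.21). Fen1, the nuclease that trims their flaps, was at 49.5 and 50.8 CPM (0.04, interval -0.06 to 0.13). Rrm2, the regulated subunit of ribonucleotide reductase, was at 202.8 and 180.1 CPM (-0.17, interval -0.22 to -0.12). The 3 nucleotide synthesis genes together had a log2 ratio of -0.14 (-0.17 to -0.10), with Rrm1 at -0.02 and Tyms, which makes thymidylate, at -0.18.

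Gene structure showed only loose relations with the ratios. Over the 45 members, Spearman's rho between the log2 ratio and transcript length was -0.31, and it was -0.24 for exon number, -0.20 for GC content and 0.38 for the median intron. Over all tested genes with an annotation the same values were -0.28, -0.29, -0.03 and 0.09. These are correlations across genes, which are not independent replicates. No member overlapped another listed gene on its own strand and 14 overlapped one on the opposite strand. Besides Pole2, more than 10% of the last 300 bases were shared with another gene for Mcm5 (21.9%) and Mcm7 (18.5%). Riok3, which shares most with Mcm5, is among the genes listed, and Gm5487, which shares most with Mcm7, is not.

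Replication genes outside the 45 members were lower in sonKD for 52 of the 66 tested (78.8%), near the 74.9% of all tested genes, and with TMM factors for 39 (59.1%), near 56.6%. The largest difference among them was that of Rnaseh2c. Among 15 tested genes of other core subunits, 6 were lower past the size limit and 1 was higher (10.2% and 3.5% of tested genes), with a median log2 ratio of -0.18. With TMM factors 4 remained lower past that size (Pold4, Rnaseh2a, Rnaseh2c and Chtf18), beside 4.6% of tested genes. Rnaseh2c, a subunit of the ribonuclease that removes RNA from DNA, was at 139.5 CPM in control against 79.2 CPM in sonKD (-0.82), and Chtf18, a subunit of an alternative clamp loader, at 31.9 and 20.3 CPM (-0.65). Of the 12 tested genes of licensing control, 1 was lower past that size and none was higher: the transcription factor E2f1 was at 46.9 and 34.3 CPM (-0.45), and the phosphatase Cdc25a, the next in size, at 50.3 and 41.7 CPM (-0.27).

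In the same list, Donson, which takes part in assembly of the helicase and overlaps the end of Son on the opposite strand of chromosome 16, was at 14.6 CPM in control against 16.1 CPM in sonKD (0.14, interval -0.04 to 0.31). For each of the next 3 lists the background past the size limit is 10.2% of tested genes lower and 3.5% higher. With TMM factors it is 4.6% and 5.6%. Among 13 genes of fork protection and checkpoint, 2 were lower past the size limit and none higher. These were the kinase Wee1 (50.8 and 40.0 CPM, -0.34) and the fork protection factor Timeless (83.0 and 66.4 CPM, -0.32). With TMM factors neither was past it. Of 14 nucleotide supply genes, 2 were lower and none higher, thymidine kinase Tk1 (58.2 and 36.1 CPM, -0.69) and the pyrimidine synthesis enzyme Cad (48.4 and 36.3 CPM, -0.41), and with TMM factors 1 was higher past it (Dtymk). Of 12 genes of chromatin assembly and maintenance methylation, 2 were lower and none higher, Uhrf1, which guides maintenance methylation (158.7 and 105.4 CPM, -0.59) and the methyltransferase Dnmt1 (184.6 and 130.5 CPM, -0.50). The medians of these lists lay between -0.18 and -0.09.

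Cells were then ordered from G2/M to G1/S by reference lists of 27 G1/S and 53 G2/M genes that hold no member, and split into 5 equal parts within each library. Each cell was thinned to 4000 UMIs, which left 4710 control and 2622 sonKD cells. A part is a range of this score and not a measured phase, and 20.4% of control and 23.0% of sonKD cells lay within 0.1 of a limit between parts. The G1/S reference was 0.95 higher on the log2 scale at its own end in control and 0.97 higher in sonKD, a difference that the ordering itself sets.

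In both libraries replication transcripts were higher at the G1/S end of the order. Their sum was 20167 UMIs per 1000 cells at the G2/M end and 23321 at the G1/S end in control, a log2 difference of 0.21 (0.18 to 0.24). In sonKD it was 17846 and 20973 UMIs per 1000 cells, a difference of 0.23 (0.19 to 0.27). The median member differed by 0.23 in control and 0.18 in sonKD, where the median tested gene differed by 0.02 and 0.0028. The members were lower in sonKD in each of the 5 parts, with log2 ratios between -0.18 and -0.15. No value of the tested genes was computed by part. Over all cells the median tested gene was itself at -0.12, and TMM factors shift every log2 ratio by 0.09.

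Several groups, among them the origin recognition complex, MCM2-7 and polymerase alpha with primase, were higher toward the G1/S end in both libraries. The 3 firing factors went different ways. The origin recognition complex was higher at the G1/S end by 0.38 (0.30 to 0.46) in control and 0.27 (0.16 to 0.39) in sonKD on the log2 scale. MCM2-7 was higher there by 0.30 (0.24 to 0.35) and 0.33 (0.25 to 0.41), and polymerase alpha with primase by 0.28 (0.18 to 0.38) and 0.48 (0.34 to 0.62). Intervals also lay above 0 in both libraries for Cdc45 and GINS (0.18 and 0.31), replication protein A (0.21 and 0.21) and nucleotide synthesis (0.22 and 0.19). The sum of the firing factors, most of which is Dbf4, differed by -0.15 (-0.28 to -0.02) and -0.29 (-0.49 to -0.09). Of its other genes, Mcm10 was higher at the G1/S end, by 0.31 (0.07 to 0.55) in control and 0.43 (0.05 to 0.81) in sonKD, and the intervals of Cdc7 lay across 0. Polymerase delta (0.03 and -0.02) had intervals across 0 in both libraries.

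**Figure D2:**
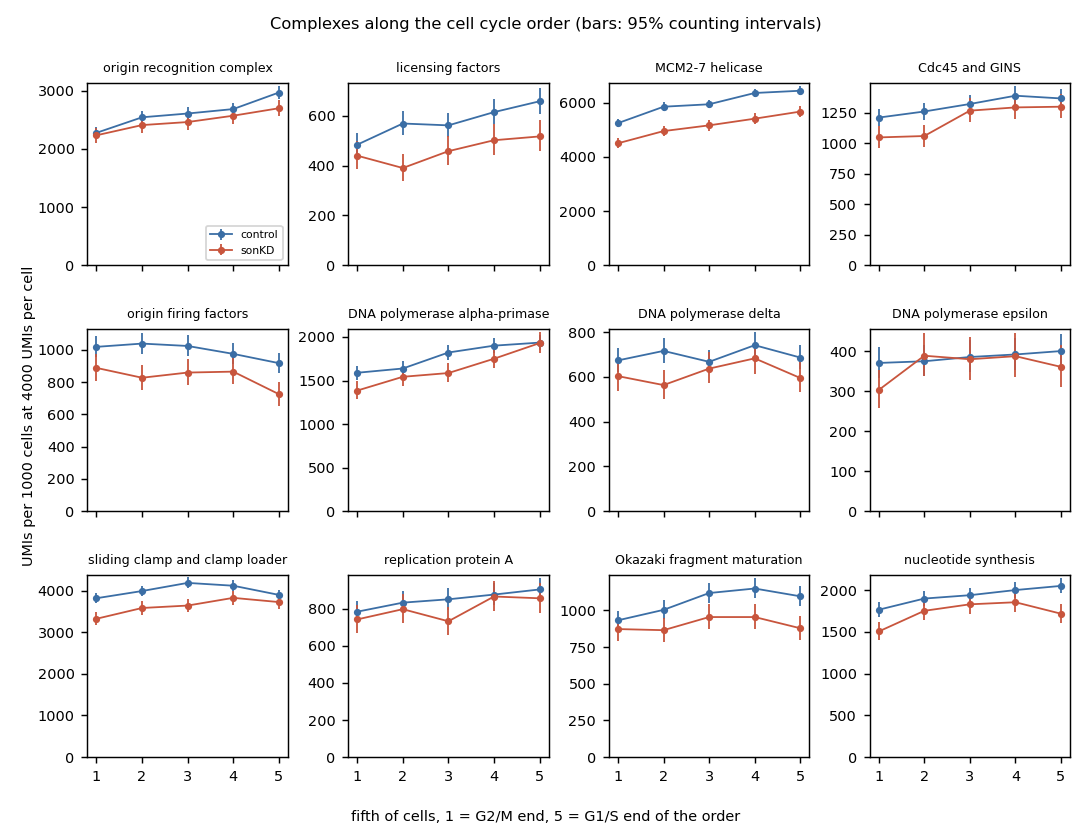
Summed UMIs per 1000 cells (each cell thinned to 4000 UMIs) of the 12 groups in the 5 parts of the cell cycle order, from the G2/M end (1) to the G1/S end (5), in control (blue) and sonKD (red); bars are 95% counting intervals and each axis starts at 0. The MCM2-7 helicase is highest in part 5 in both libraries and the sum of the origin firing factors, most of which is Dbf4, is lowest there.

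Within a complex the subunits did not share 1 pattern. Cdc6 went from 173.0 UMIs per 1000 cells at the G2/M end to 301.5 at the G1/S end in control, and from 161.9 to 259.5 in sonKD, log2 differences of 0.80 (0.52 to 1.09) and 0.68 (0.28 to 1.09). Orc1, the subunit whose protein is known to turn over in the cell cycle, differed by 0.70 (0.44 to 0.95) and 0.56 (0.19 to 0.94). Its partner Orc5 differed by -0.12 (-0.46 to 0.21) and 0.44 (-0.09 to 0.97), an interval across 0 in both libraries. In the MCM2-7 ring, Mcm4 differed by 0.69 (0.54 to 0.84) and 0.59 (0.38 to 0.80) and Mcm6 by 0.43 (0.30 to 0.55) and 0.43 (0.25 to 0.61). Mcm7 was level, at -0.0017 (-0.14 to 0.14) and -0.03 (-0.24 to 0.17).

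Dbf4, the activating partner of Cdc7, was the only member past the size limit in the opposite direction in both libraries. It went from 660.3 UMIs per 1000 cells at the G2/M end to 487.3 at the G1/S end in control (-0.44, interval -0.62 to -0.26). In sonKD it went from 628.6 to 396.9 (-0.66, interval -0.92 to -0.41). Its kinase Cdc7 differed by 0.08 and 0.04.

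Past the same size limit toward the G1/S end there were 13 members in control, beside 11.1% of tested genes, and 16 in sonKD, beside 12.4%. In both libraries at once there were 8, beside 3.13% of tested genes: Orc1, Orc6, Cdc6, Mcm4, Mcm6, Cdc45, Gins2 and Prim2. Past that size toward the G2/M end there was 1 member in each library (9.8% and 14.2% of tested genes) and the same 1 in both (4.06%). Of the 45 members, 34 were above 0 in both libraries, 4 below in both and 7 of opposite sign. The same count by sign was not made for the tested genes. The 9 members with an octamer in the promoter had a median difference of 0.24 in control and 0.43 in sonKD, and the 29 searched members without one had 0.20 and 0.16. These medians describe 2 small sets.

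**Figure D3:**
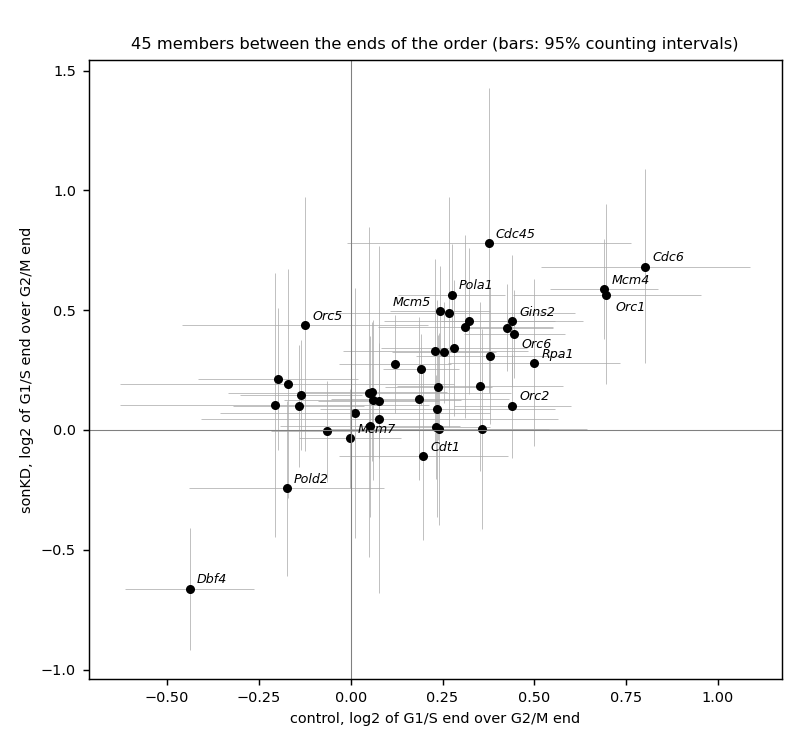
Log2 difference between the G1/S end and the G2/M end of the cell cycle order for each of the 45 members, control on the horizontal and sonKD on the vertical axis, with 95% counting intervals as grey bars and some genes named. Most points lie in the upper right, where 34 members were above 0 in both libraries, and Dbf4 lies apart at the far lower left. Signs of the tested genes were not counted.

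The largest differences between libraries kept their sign at every position of the order. Pold1 was lower in sonKD in all 5 parts, with log2 ratios from -1.12 to -0.70 and intervals below 0 in each. Rpa3 was higher in all 5, from 0.30 to 0.88, with an interval across 0 in the third part. Mcm2 was lower in all 5, from -0.54 to -0.33. Cdt1 had a log2 ratio of -0.16 (-0.46 to 0.13) at the G2/M end and ratios from -0.60 to -0.36 in the other parts.

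Counts of the members in single cells varied somewhat more than counting noise alone. In control, cells thinned to 4000 UMIs held a mean of 22.2 member UMIs with a variance of 32.6, and the 10th and 90th percentiles were 15 and 30. In sonKD the mean was 19.8 with a variance of 34.6, and the percentiles were 12 and 27. After the counting part is taken off, the coefficient of variation was 14.6% in control and 19.5% in sonKD. The member sum had a Pearson r of 0.34 in control and 0.49 in sonKD with the G1/S reference, and of 0.09 and 0.28 with the G2/M reference, on log2(1 + UMIs) over cells. The 2 reference lists, which share no gene, had an r of 0.12 and 0.31 with each other.

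Co-variation between complexes was weak at this depth, and such values in sparse counts are given as a description only. Over the 66 pairs of complexes the median r was 0.02 in control and 0.04 in sonKD, and 53 and 64 pairs were above 0. Thinned to 2500 UMIs the medians were 0.0193 and 0.0217. The highest mean over both libraries was that of MCM2-7 with the nucleotide synthesis genes, at 0.09 and 0.18. Each complex was also set against the sum of all members outside it: MCM2-7 had the highest r, at 0.20 and 0.33, while polymerase epsilon had 0.03 and 0.08. Sparse counts lower r, so the covariance was also divided by the product of the means. Pooled over the 76 pairs of members in the same complex that value was 0.031 in control and 0.046 in sonKD, and over all other pairs 0.018 and 0.035. Abundant members weigh most in this pool, and the complexes did not share the excess. Within single complexes the value ran from 0.0067 (Okazaki fragment maturation) to 0.12 (licensing factors) in control. In sonKD it ran from -0.043 (licensing factors) to 0.11 (polymerase delta).

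Among the members that co-varied most with the rest were genes of the helicase and Rrm2. Mcm4 had an r of 0.14 in control and 0.18 in sonKD with the other members, Rrm2 0.12 and 0.18, Mcm5 0.11 and 0.18, Mcm3 0.11 and 0.17 and Mcm6 0.12 and 0.15. Pcna was close to these, at 0.11 and 0.16. The other nucleotide synthesis genes were lower, with Rrm1 at 0.06 and 0.12 and Tyms at 0.0066 and 0.07. At the low end were Orc4 (-0.02 and -0.0027), Rpa3 (0.0087 and 0.02), Dbf4 (0.00064 and 0.03), Orc5 (0.0058 and 0.03) and Fen1 (0.01 and 0.03). The median member had 0.041 and 0.072, and the median tested gene 0.0046 and 0.0092. Without the cells lowest in both phase lists, which are described further on, the median member had 0.0359 in control and 0.0444 in sonKD, and thinned to 2500 UMIs 0.0384 and 0.0452. Above the 95th percentile of tested genes in both libraries were 15 of the 45 members and 3.04% of the tested genes. Abundant genes reach a higher r at a given strength of co-variation, and the members at the top of this order are among the abundant ones.

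**Figure D4:**
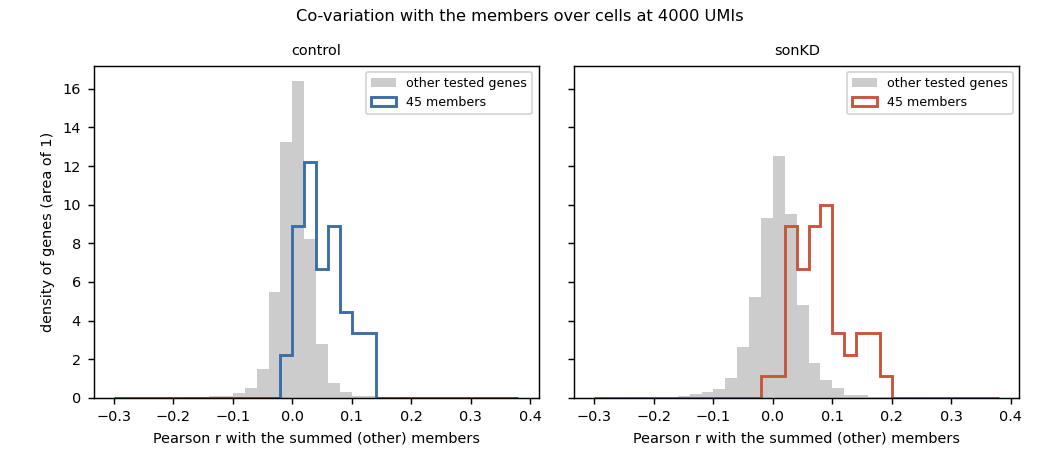
Pearson r of each gene with the summed members other than itself, over cells thinned to 4000 UMIs, in control (left) and sonKD (right); the grey histogram shows the other tested genes and the outline the 45 members, each scaled to an area of 1. The median member is at 0.041 in control and 0.072 in sonKD.

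Outside the members, the genes with the highest r to their sum included genes of the nucleolus, of chaperonins and of histone handling. Ncl, which encodes nucleolin, had 0.26 in control and 0.36 in sonKD, the histone variant gene H2afz 0.20 and 0.36, and the mitochondrial chaperonin gene Hspd1 0.23 and 0.31. Npm1, Nasp, Set, Ptma, Hnrnpab, Hells and Cct6a followed, and Nasp and Hells are themselves in the G1/S reference. The lowest were the mitochondrially encoded mt-Co3 (-0.18 and -0.27), mt-Co2, mt-Atp6 and mt-Co1, together with Perp (-0.13 and -0.25), a gene known as a p53 target.

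A corner of the order stood out in the members' levels: cells that ranked in the lowest 1 of 5 equal parts for both reference lists at once, a set chosen after the data were seen. There were 263 such cells in control, or 5.58% (4.95 to 6.28, exact binomial), and 203 in sonKD, or 7.74% (6.75 to 8.83). They held 17.7 member UMIs per cell against 22.4 in all other control cells, or 78.8% (76.5 to 81.1). In sonKD they held 12.4 against 20.4, or 60.6% (58.2 to 63.1). The cells were chosen by a G1/S reference that the member sum follows, so part of the lower level comes with the choice. The cells lowest in the G1/S reference but in a higher part of the G2/M reference held 19.5 to 20.5 member UMIs in control. In sonKD such cells held 17.2 to 18.4. The median member was at 80.4% of other cells in control and 64.0% in sonKD, and the median tested gene at 93.6% and 92.1%. Lower past the size limit were 22 members in control, beside 27.1% of tested genes, and 37 in sonKD, beside 34.4%, and no member was higher past that size, beside 14.1% and 20% of tested genes.

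MCM2-7 was at 76.6% of other cells in control and 50.6% in sonKD, and the clamp with its loader was at 77.5% and 55.2%. The origin recognition complex (86.9% and 80.0%) and replication protein A (86.6% and 80.1%) were nearest to other cells in sonKD. In control, polymerase epsilon (93.6%) and polymerase alpha with primase (87.6%) were nearer, while in sonKD they were at 63.1% and 64.6%. By gene, Mcm3 had 1190 UMIs per 1000 of these cells against 1652 in other control cells, and 660.1 against 1484 in sonKD. Prim1 was at 80.4% in control and 37.8% (26.0 to 53.1) in sonKD, while Prim2 was at 102% and 119% (93.9 to 149).

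These cells differed in quality measures as well. Their median UMI count before thinning was 5948 against 7974 in control and 7187 against 11980 in sonKD. Their median mitochondrial share was 4.6% against 3.58% in control and 6.08% against 3.98% in sonKD. Mdm2, a p53 target named after its values were seen, had 2061 against 503.3 UMIs per 1000 cells in control and 2128 against 479.5 in sonKD. Perp had 410.7 against 136.5 in control and 876.9 against 177.4 in sonKD. With cells limited to at most 5% mitochondrial UMIs the corner held 165 control and 91 sonKD cells. Its members were then at 87.2% of other cells in control and 81.5% in sonKD. MCM2-7 was at 87.5% in control and 81.3% in sonKD, and the clamp with its loader at 90.2% and 80.1%. The origin recognition complex was at 87.4% and 89.0%, and replication protein A at 82.8% and 88.2%. Under this limit the order of these groups in control was not kept. With mitochondrial and ribosomal protein genes left out before thinning to 2500 UMIs, the members were at 80.0% in control and 62.5% in sonKD. The part of mitochondrial share and depth in the lower levels was not tested further.

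**Figure D5:**
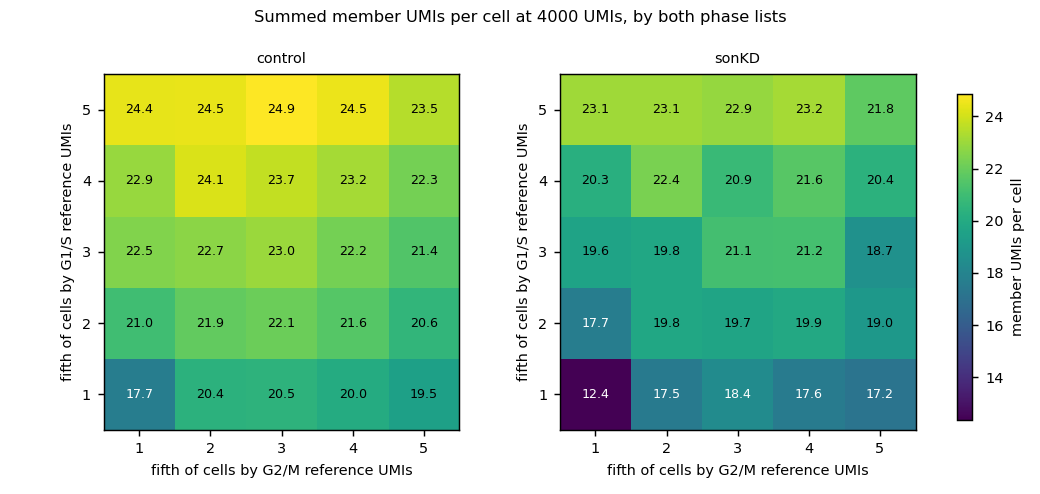
Mean UMIs of all 45 members per cell (each cell thinned to 4000 UMIs) by rank in the G2/M reference (horizontal) and in the G1/S reference (vertical), each in 5 equal parts, within control (left) and sonKD (right); the colour scale is shared. The corner that is lowest in both references holds 17.7 UMIs per cell in control and 12.4 in sonKD, the lowest value of each panel.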

How the data were processed

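Single-cell 3' RNA-seq of 2 libraries was used. Per the file headers, the authors made the deposited UMI counts per gene and barcode with Cell Ranger 7.1.0, and the submitters' processing notes name mm10; the annotation release and whether intronic reads were counted are not given in the sources used here. The files list every barcode, so cells were selected by the limits in the text. Counts were summed over cells and scaled to CPM. The log2 ratios of sonKD over control carry no pseudocount and no floor. For the differences of all tested genes between the ends of the order, counts were floored at 3. Intervals are exact: Poisson for sums, conditional binomial for ratios, Clopper-Pearson for shares. For shares, co-variation and the cell cycle order each cell was thinned to 4000 UMIs (seed 7), leaving out 268 control and 109 sonKD cells. No doublet caller was run, and 1 alternative removes the deepest barcodes at 0.8% per 1000 cells. Calculations used Python 3.11.15, numpy 2.4.6, scipy 1.17.1 and, for TMM factors alone, edgeR 4.0.16. Scripts were tested on simulated data. Structures come from GENCODE M21.

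The members and all lists were chosen with earlier results of these data known. Named by rule were Son and Donson, members past the size limit, the 5 highest and 5 lowest ratios, the most counted member of each group, the 5 highest and 5 lowest members by r, the 10 highest and 5 lowest other genes by r, and the 2 genes of each further list farthest from 0. Members named for their place in the cell cycle order or in the corner of the phase lists were chosen after their values were seen. A total of 6 marker lists and 5 further replication lists were counted.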

Additional observations from a re-analysis of the deposited data

How the results depend on the processing

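No paired analysis was possible because each group held 1 library. Each alternative changed 1 choice. The log2 ratio of Son was -0.58 with TMM factors, -0.59 with size factors and -0.60 in CPM without mitochondrial and ribosomal protein genes. Under the same 3 scalings the summed members were at -0.0458, -0.0509 and -0.0651, and the median member at -0.0577, -0.0628 and -0.0770. Under each, 1 member was lower past the size limit, beside 4.6%, 4.8% and 5.4% of tested genes. From 5000 UMIs per cell the sum was -0.15 and the median -0.17, and at most 5% mitochondrial UMIs gave -0.12 and -0.14. At a mean of 50 CPM, which 36 members reach, the median was -0.17 and 0 members were higher past the size limit, since Rpa3 lies below that level. Thinned to 2500 UMIs, the difference of the sum between the ends of the order was 0.17 in control and 0.18 in sonKD, the sonKD median r was 0.0217 over pairs of complexes and 0.0452 over members, the median share of sonKD cells with a UMI was 18.5%, and the ratio in the second part was -0.11. Thinned to 6000 UMIs, the difference in control was 0.27 and the ratios in the third and highest parts were -0.12 and -0.19. At most 5% mitochondrial UMIs gave 0.26 in control and ratios of -0.10 and -0.11 in the third part and the one after it. Without the deepest barcodes the difference in sonKD was 0.28 and the ratio in the highest part was -0.12. Without the cells lowest in both phase lists, an alternative chosen after seeing the data, the sonKD median r over members was 0.0444. The other scalings of the further replication lists were also chosen after seeing the data. The causes of these shifts were not tested. Of the summary values of this kind, 90 stayed within their limits and 33 moved past them. Under the alternatives, log2 ratios of single members left their counting interval in 90 cases and stayed inside it in 270. Those of complexes left it in 37 cases and stayed inside it in 59. With 1 library per group, depth limits counting error only, and the spread between replicates is unknown.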

Other observations

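The barcodes left out for more than 10% mitochondrial UMIs also held replication transcripts. In control, 625 such barcodes had the summed members at 4852 CPM (4755 to 4950), and in sonKD 1056 barcodes had them at 4621 CPM (4551 to 4691). With mitochondrial and ribosomal protein genes taken out of the total, these values were 6488 CPM in control and 6629 CPM in sonKD, beside 7216 and 6898 CPM in the kept cells. The median UMI count of these barcodes was 2973 in control and 3140.5 in sonKD. The members higher in droplets of 100 to 500 UMIs than in kept cells of both libraries were Orc6, Gins2, Gins4, Rfc3, Rfc4, Rpa3 and Tyms.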
